A study of Mus musculus with 7 samples.

Results

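The genes described here encode the proteins of the cytosolic ribosome. They were taken by name from the authors' deposited table as every row with a standard large-subunit symbol (Rpl and a number, or Rplp0, Rplp1 and Rplp2) or small-subunit symbol (Rps and a number, or Rpsa), without the Rps6k kinase genes, and a mean normalized count of 10 or more. The name rule took 85 rows and 80 of them reached that mean, out of 25239 rows in all. Of the 80 genes, 47 belong to the large subunit and 33 to the small subunit. By symbol, 75 are canonical and 5 are like-genes, that is genes named after a canonical one with an added l (Rps27l, Rpl22l1, Rpl7l1, Rps4l and Rpl32l). The 5 rows left out were Rpl30 with a mean of 4.62, Rpl39l with 2.48, and Rpl26, Rpl10l and Rpl3l, which are listed at 0. The members just inside the limit were Rpl32l with a mean of 11.6, Rps27 with 18.0 and Rpl34 with 27.7.

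Both groups were cortex of wild-type C57BL/6J mouse embryos that had been electroporated in utero at E13.5 with Breasi-CRISPR reagents (a Cas9 genome-editing method with a DNA donor) and collected at E15.5. The edited group, 3 brains with 1 in each of 3 litters, received the change of codon 280 of Ccnd2 from threonine to alanine. The control group, 4 brains, came from the same litters (2 from litter 1, 1 from litter 2 and 1 from litter 3) and received a silent change. Its position was not given in the sources used here. Electroporation reaches part of the cells at the ventricle, so each sample mixed edited with unedited cells, in shares that were not measured here. Each sample is bulk RNA, in which fewer cells of a type and less RNA per cell cannot be told apart. The deposited table holds 1 comparison of the groups and no value per brain, so the levels below are means over all 7 libraries and the spread between brains appears only in the standard error (SE) of each fold change. Library totals, estimated from 694 genes that had 1 read in all, were about 19400000 to 32800000 reads. The table gives each fold change in 2 columns of opposite sign and names no direction. It was inferred from the signs of those genes: in the column used, 3 of their classes lay above 0 and 4 below, as 3 edited and 4 control libraries would give if positive values are higher in edited brains. The cortical genes Neurod6, Bcl11b and Tbr1 had means of 20978, 15154 and 14403 normalized counts in the authors' deposited table, so markers of the labelled tissue were present. Ccnd2 itself stood at 0.08 on the log2 scale (SE 0.25) in that table, a total over edited and unedited transcripts.

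A ribosome is built from a large subunit, which joins amino acids, and a small subunit, which reads the messenger RNA. Each protein is needed in a fixed proportion to the others, and their genes are expressed in nearly all cells. Their messenger RNAs begin with a C followed by a run of C and T (U in RNA), called a terminal oligopyrimidine (TOP) motif, through which the mTOR kinase and the RNA-binding protein LARP1 control how much of them is translated. In the developing cortex, growing progenitors need many ribosomes, and ribosome numbers and the translation of ribosomal protein messages are known to fall as neurons differentiate. D-type cyclins such as the product of Ccnd2 drive the same progenitors through the cell cycle.

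Runs of C and T near the start were more frequent in these genes than among all tested genes, as counted below. The windows printed were picked as examples, so they do not give the shares. The windows below run from 10 bases before to 20 bases after the start of the gene in RefSeq (GRCm38.p6), 5′ to 3′ on the strand of the gene, with every run of 8 or more C or T in capitals. The first 7 carry such a run and Rpl37, Rpl22 and Rps4x do not in this window.
Rpl38, chr11:114668570-114668599 (+): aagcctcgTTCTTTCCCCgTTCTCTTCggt
Rpl35, chr2:39005112-39005141 (-): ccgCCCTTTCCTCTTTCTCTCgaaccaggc
Rpl15, chr14:18270967-18270996 (-): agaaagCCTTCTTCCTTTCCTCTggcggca
Rplp2, chr7:141447641-141447670 (+): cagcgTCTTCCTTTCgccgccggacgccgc
Rps6, chr4:86857348-86857377 (-): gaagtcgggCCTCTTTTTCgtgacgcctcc
Rps10, chr17:27635225-27635254 (-): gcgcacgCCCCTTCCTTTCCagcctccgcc
Rps18, chr17:33955646-33955675 (-): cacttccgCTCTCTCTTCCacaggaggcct
Rpl37, chr15:5116603-5116632 (+): cctgggcggaagcttatccacaggaagtgg
Rpl22, chr4:152325716-152325745 (+): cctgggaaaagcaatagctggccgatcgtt
Rps4x, chrX:102189372-102189401 (-): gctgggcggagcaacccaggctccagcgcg
RefSeq start windows were held for 60 of the 80 genes. In a window of 50 bases, 20 before to 30 after the start, 34 of these 60 (56.7%) had a run of 8 or more C or T on the sense strand, against 22.3% of 11582 tested genes with a window. The letters CTTTC were found there on the sense strand in 20 of 60 (33.3%), against 6.8% of the tested genes. The letters CCGGAA, the core of sites for ETS-family transcription factors, lay on either strand of the 300-base promoter in 33 of 60 (55.0%), against 28.9%. A match describes the letters only, and annotated starts can lie some bases away from the true start. In the authors' deposited table, the 34 genes with the C and T run had a median log2 fold change of 0.00 (17 above 0) and the 26 without it one of 0.02 (18 above 0).

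Ribosomal protein genes were among the most abundant in the tissue. The 80 genes, 0.317% of the rows, held 3.94% of the summed mean normalized counts in the authors' deposited table, 2.30% from the large and 1.64% from the small subunit. The highest mean belonged to Rplp0 (chromosome 5, 115559467 to 115563727), the base of the stalk that recruits elongation factors, with 47184 normalized counts. It was followed by Rpsa (chromosome 9, 120127689 to 120132369), a small-subunit protein that also gives rise to the laminin receptor, with 37757, and by Rpl4, a protein that lines the exit tunnel, with 30256. Levels can be compared between genes only per length, and per kilobase of coding sequence the 75 canonical genes had a median of 23968 normalized counts and an interquartile range of 19928 to 28664. The median was 23456 per kilobase for the 44 large-subunit and 25919 for the 31 small-subunit canonical genes. Far from this band lay Rpl41 at 125148 per kilobase, whose coding sequence has 75 bases while reads from its untranslated parts count too, and Rps27 and Rpl34 at 71.6 and 78.8 per kilobase.

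**Figure D1:**
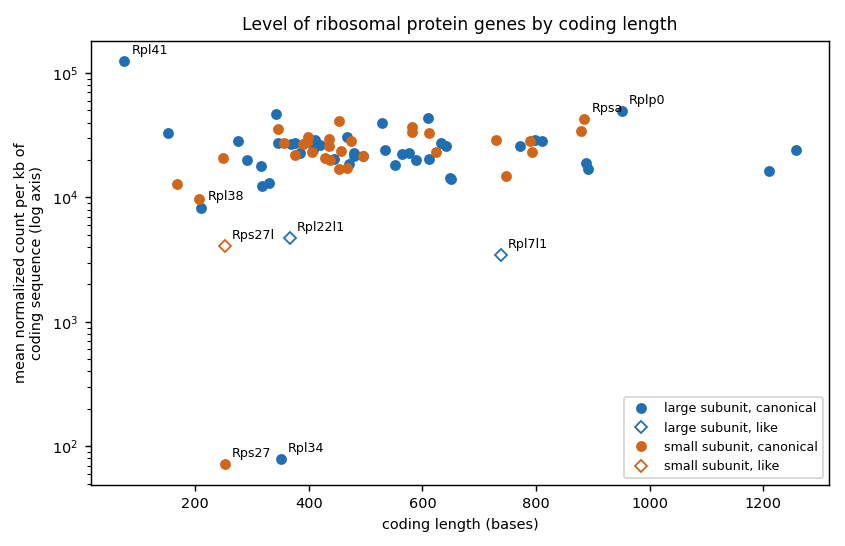
Mean normalized count per kilobase of coding sequence (log axis) against coding length in bases, for the 78 genes with a coding sequence, large subunit blue and small subunit orange, filled circles canonical and open diamonds like-genes. Most canonical genes lie near 23968 per kilobase, Rps27 and Rpl34 far below at 71.6 and 78.8, and the 3 like-genes with a coding sequence between 3447 and 4727.

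The comparison of edited with control brains asked whether the Ccnd2 change altered expression in the cortex 2 days after electroporation. No ribosomal protein gene passed the test. With the authors' DESeq2 Wald test at an adjusted p below 0.05, 0 of 80 genes were called in the authors' deposited table, against 0.246% of all 14638 tested genes (36 genes). At an unadjusted p below 0.05 there were 0 of 80 as well, against 5.86% of all tested genes (858 genes). Of tested genes with means of 1000 or more, 387 of 5522 reached that p and 13 were called. With means of 5000 or more, 104 of 994 reached it and 5 were called. At an unadjusted p below 0.1 there were 2 of 80, Rps4l and Rpl41, against 1537 of the 14638 tested genes. The adjusted p-values of the 80 genes ran from 0.866 to 0.999. Of the 80 genes 50 lay above 0, that is higher in edited brains, and 30 below 0. The median log2 fold change was 0.02, with an interquartile range of -0.02 to 0.04. Among the 5522 tested genes with means of 1000 or more, 60.1% lay above 0 and the median was also 0.02, with an interquartile range of -0.04 to 0.08. Over all tested genes 48.0% lay above 0, with a median of -0.01. Set against the median of those abundant genes instead of 0, 40 of the 80 members lay above it and 40 below, in place of 62.5% above 0.

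Most fold changes were small in size, as were those of other abundant genes. The median size of the log2 fold change, sign aside, was 0.04 for the 80 genes, against 0.06 for tested genes with a mean of at least 1000 and 0.10 for all tested genes. The median SE was 0.07, against 0.09 and 0.14. The 994 tested genes with means of 5000 or more, nearer in abundance to the members, had a median size of 0.06 and a median SE of 0.07, and 63.4% of them lay above 0. The 95% interval, computed here from the log2 fold change and SE in the authors' deposited table, lay wholly within a 1.2-fold difference in either direction for 68 of the 80 genes, and within 1.5-fold for 75. The share within 1.2-fold was 85.0% for the ribosomal protein genes, 60.8% for tested genes with a mean of at least 1000 and 73.0% for those of 5000 or more. Within 1.5-fold the shares were 93.8%, 97.5% and 99.0%, so the order of the groups depended on the limit. For the other 12 members, Rpl32l, Rpl34, Rpl37, Rpl37a, Rpl38, Rpl41, Rps21, Rps27, Rps27l, Rps28, Rps29 and Rps4l, a difference over 1.2-fold lay within it. The intervals rest on 7 libraries and the error model of the authors' fit, and members measured in the same libraries do not count as replicates of each other.

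**Figure D2:**
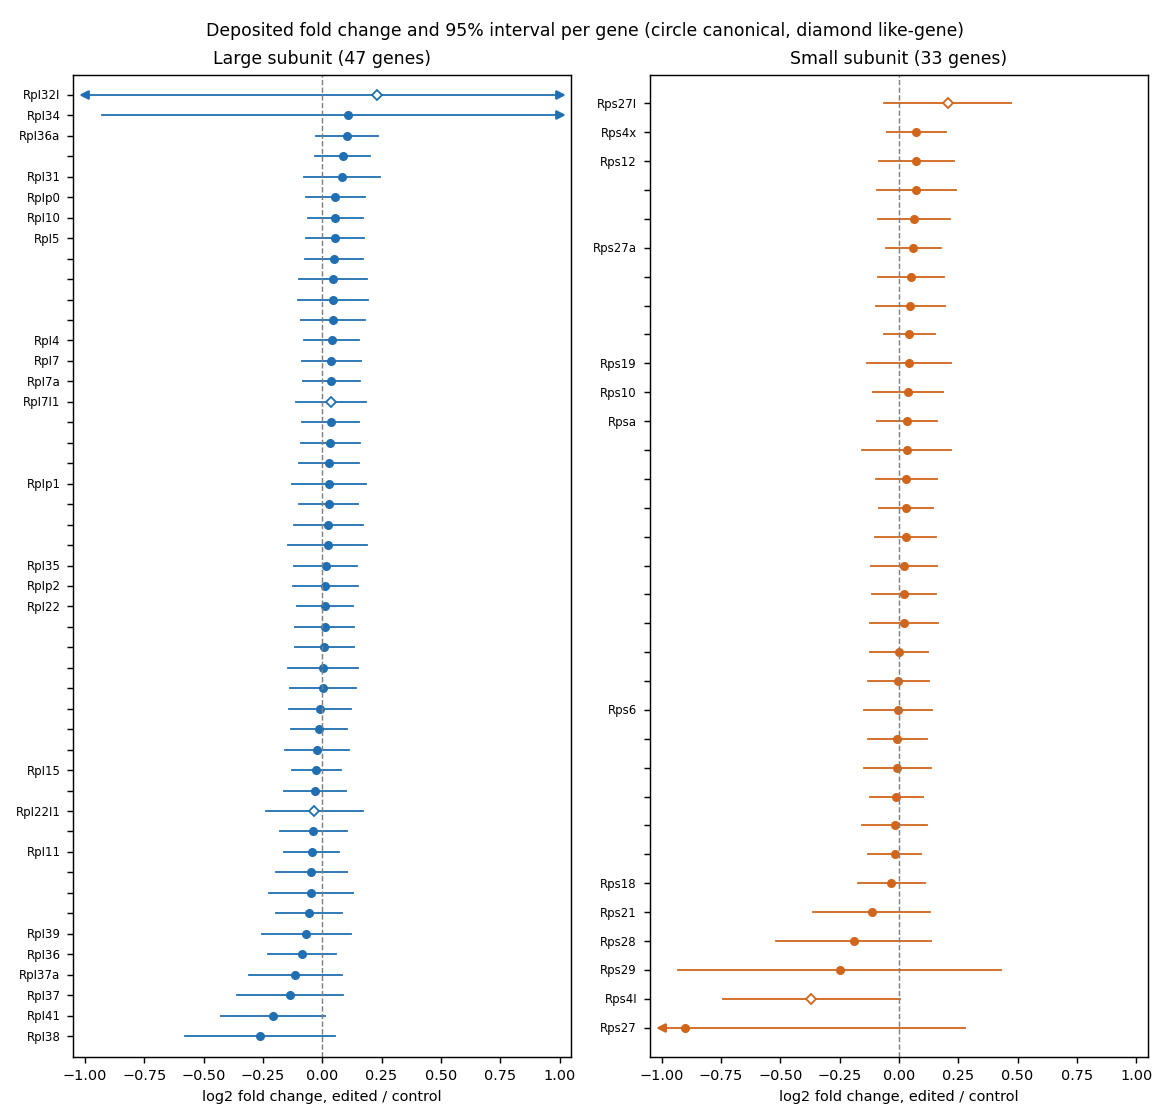
Log2 fold change of edited over control brains with its 95% interval for the 47 large-subunit genes (left, blue) and the 33 small-subunit genes (right, orange), in order of the fold change and labelled where the text describes them. Circles are canonical genes, diamonds are like-genes, and arrowheads mark intervals that run past 1 or -1. All 80 intervals include 0, and those of Rpl32l, Rpl34, Rps27 and Rps29 are the widest.

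Large and small subunits stood at nearly the same place. In the large subunit 30 of 47 genes lay above 0, with a median log2 fold change of 0.01 and an interquartile range of -0.03 to 0.04. In the small subunit 20 of 33 lay above 0, with a median of 0.02 and an interquartile range of -0.01 to 0.04. The medians differed by -0.01 (large minus small), against a median SE of 0.07 for a single gene in each subunit. With canonical genes alone, 28 of 44 large-subunit and 19 of 31 small-subunit genes lay above 0, with medians of 0.01 and 0.02.

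In the large subunit, the canonical genes with the highest fold changes included Rpl34 at 0.11 (SE 0.53), Rpl36a at 0.10 (SE 0.07, unadjusted p = 0.114), Rpl31 at 0.08 (SE 0.08) and Rplp0 at 0.06 (SE 0.06) in the authors' deposited table. All encode proteins of the large subunit, and Rpl34 had the low mean given above. The lowest in that deposited table were Rpl38 at -0.26 (SE 0.16, unadjusted p = 0.103), Rpl41 at -0.21 (SE 0.11, unadjusted p = 0.0612), Rpl37 at -0.14 (SE 0.11), Rpl37a at -0.11 (SE 0.10) and Rpl36 at -0.09 (SE 0.07). Rpl38 (chromosome 11, 114668524 to 114672331) is known from mutant mice for the patterning of the skeleton and the translation of Hox messages, and Rpl41 (chromosome 10, 128548114 to 128549305) encodes the smallest protein of the ribosome. Of these 5 genes, 4 have at most 300 coding bases, a property taken up again further on.

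In the small subunit, the canonical genes with the highest fold changes included Rps4x at 0.07 (SE 0.06), Rps12 at 0.07 (SE 0.08) and Rps27a at 0.06 (SE 0.06) in the authors' deposited table. Rps12 is known from flies as a sensor of unequal ribosomal protein levels between cells. The lowest there were Rps27 at -0.90 (SE 0.60, unadjusted p = 0.134), Rps29 at -0.25 (SE 0.35), Rps28 at -0.19 (SE 0.17), Rps21 at -0.11 (SE 0.13) and Rps18 at -0.03 (SE 0.07). The SE of Rps29 was the highest among the 76 members with a mean of at least 1000, at a mean of 2140 normalized counts. Rps18, the fifth lowest of 31 canonical small-subunit genes, stood within 1 SE of 0.

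Genes with known roles outside or at the edge of the ribosome lay close to 0 as well. The stalk proteins Rplp1 and Rplp2, which bind to Rplp0 and to elongation factors, were at 0.03 (SE 0.08) and 0.01 (SE 0.07), and Rpsa at 0.03 (SE 0.06), by the authors' deposited table. Rpl5 (chromosome 5, 107900502 to 107909005) and Rpl11 (chromosome 4, 136028265 to 136053428) bind and inhibit MDM2 when ribosome assembly fails, which raises p53. By the authors' deposited table they were at 0.05 (SE 0.06) and -0.04 (SE 0.06), each with an interval within 1.2-fold. Rps6 (chromosome 4, 86854660 to 86857412), the substrate of S6 kinases whose phosphorylation is a usual readout of mTOR signalling, stood at -0.00 (SE 0.07) in the authors' deposited table, a measure of its transcript and not of its phosphorylation. Rps19, the gene most often mutated in Diamond-Blackfan anemia in people, stood at 0.04 (SE 0.09) in that deposited table. Rps27a, which is made as a fusion with ubiquitin, had a mean of 8007 normalized counts.

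Chromosome X held 4 members. In the authors' deposited table Rpl36a stood at 0.10 (SE 0.07), Rps4x at 0.07 (SE 0.06), Rpl10 at 0.06 (SE 0.06) and Rpl39, a protein at the exit tunnel, at -0.07 (SE 0.09). Of these, 3 lay above 0 and all 4 intervals included 0.

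The like-genes had lower mean counts than most canonical ones, and by GENCODE M21 2 of the 5 are not protein-coding genes. Rps4l (chromosome 6, 148354656 to 148355598) is annotated as a transcribed processed pseudogene and Rpl32l (chromosome 10, 20208490 to 20208888) as a processed pseudogene, that is a copy of a spliced messenger RNA in the genome. Per kilobase of coding sequence, Rpl22l1, a paralog of Rpl22 that is known to act opposite to it in zebrafish and mouse blood development, had 4727 normalized counts against 22664 for Rpl22, which is 0.209 times its level. Rpl7l1, a paralog of Rpl7, had 3447 against 28325 for Rpl7, or 0.122 times. Reads from untranslated parts count too, so these ratios depend on the length used. The whole transcripts chosen had 552 bases for Rpl22l1 and 2051 for Rpl22, and 2606 for Rpl7l1 and 1163 for Rpl7. Fold changes of the 5 like-genes ran from -0.37 to 0.23, with a median log2 fold change of 0.04 and a median SE of 0.14. Those of the 75 canonical genes ran from -0.90 (Rps27) to 0.11, with a median of 0.02 and a median SE of 0.07. The like-gene median rests on few genes and moved between 0.00 and 0.12 with the choice of members. In the authors' deposited table Rps4l stood at -0.37 (SE 0.19, unadjusted p = 0.0525, adjusted p = 0.866), the lowest p of all members. There, Rps27l stood at 0.21 (SE 0.14, unadjusted p = 0.131), Rpl22l1 at -0.03 (SE 0.10), Rpl7l1 at 0.04 (SE 0.07) and Rpl32l at 0.23 (SE 0.78). Rps27l is a direct p53 target gene in human and mouse cells. For Rpl22l1 and Rpl22 the fold changes were -0.03 and 0.01, and for Rpl7l1 and Rpl7 both were 0.04, so that neither pair differed by more than the SE of a single gene.

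Rps27 had far fewer counts than Rps27l, the reverse of the other pairs. Rps27 (chromosome 3, 90212522 to 90213651) encodes a canonical protein of the small subunit and had a mean of 18.0 normalized counts, against 1019 for Rps27l (chromosome 9, 66946086 to 66949516). Rps27rt (chromosome 9, 114982366 to 114982739), a retrogene copied from the messenger RNA of Rps27, is listed at 0. The first 60 coding bases of the 3 genes in GENCODE M21 (GRCm38) are shown 5′ to 3′, with capitals at bases that differ from Rps27.
Rps27: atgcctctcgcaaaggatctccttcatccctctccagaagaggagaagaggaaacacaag
Rps27rt: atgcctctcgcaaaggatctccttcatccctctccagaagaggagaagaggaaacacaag
Rps27l: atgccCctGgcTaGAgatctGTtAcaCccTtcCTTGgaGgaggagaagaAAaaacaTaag
Over the whole coding sequence of 252 bases without the stop codon, Rps27rt had 0 differences from Rps27, so that a read lying wholly within it matches both genes. Rps27l had 60 differences, an identity of 76.2%, and its longest stretch in common with Rps27 was 11 bases. The fold changes of -0.90 (SE 0.60) for Rps27 and 0.21 (SE 0.14) for Rps27l in the authors' deposited table have overlapping intervals, from -2.08 to 0.28 and from -0.06 to 0.47.

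Other members share sequence with copies as well, since ribosomal protein genes have many processed pseudogenes. Of 83 members and left-out rows with a coding sequence, 29 had every 50-base stretch of it also in a transcript of another gene in GENCODE M21, and 68 had at least 50% of the stretches shared. The gene with the most such partners was Rpl7a, with 123 other genes, 120 of them pseudogenes. Of the fully shared genes most had high counts, since 28 of the 29 fully shared genes had means of at least 1000, and across the 80 members the rank correlation of the shared percentage with the mean was -0.15 (Spearman's rho, a description over genes that share the same libraries). Rpl26 and Rpl30, which encode proteins of the large subunit, shared 87.3% and 83.1% of their stretches, Rpl34 shared 72.2%, and the means of these 3 genes and Rps27 were between 0 and 27.7. As genes that every cell uses are listed near 0, a low mean in this table does not show that a gene was not expressed. How reads that map to several places were treated was not given in the sources used here, and its part in these values was not tested.

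**Figure D3:**
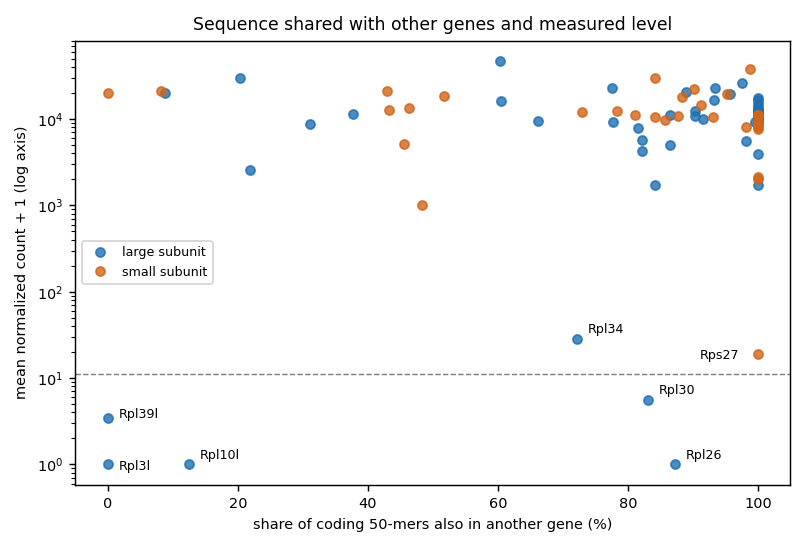
Mean normalized count plus 1 (log axis) against the percentage of 50-base stretches of the coding sequence that also occur in another gene, for 83 genes of the name rule, large subunit blue and small subunit orange. The dashed line marks the minimum mean of 10. Genes with 100% shared sequence mostly have means above 1000. The canonical genes Rps27, Rpl34, Rpl30 and Rpl26 lie far below the other canonical genes, at 72.2% to 100% shared. Rpl10l, Rpl3l and Rpl39l, left out by their means, lie as low with 12.5%, 0% and 0% shared.

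Members with the shortest coding sequence stood lower than the others. This grouping was made after the values were seen. Of the 10 genes with at most 300 coding bases, 9 lay below 0 and the median log2 fold change was -0.16, with a median SE of 0.13. They were Rpl41, Rpl39, Rps29, Rps28, Rpl38, Rps21, Rps27, Rpl37a and Rpl37, and the exception was Rps27l. Without Rps27, all 9 had means of 1000 or more, 8 of them lay below 0, and the median of the 9 was -0.14. Of the 68 members with longer coding sequences, 48 lay above 0, with a median of 0.03. No single gene of the 10 had an unadjusted p below 0.05. Across the 78 members with a coding sequence, the rank correlation of coding length and log2 fold change was 0.27 (Spearman's rho, a description across genes). That of the mean normalized count and log2 fold change was 0.28 across the 80 members. The short members also had lower counts: the highest mean of the 10, that of Rpl41, was 9386, below the median of 10817 over all members. Which of the 2 properties the fold changes go with was not tested.

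Short coding length went with a lower fold change in genes outside the ribosome too, with a median nearer 0. Of 255 other tested genes with at most 300 coding bases, 71 (27.8%) lay above 0, with a median log2 fold change of -0.07. With means of 1000 or more normalized counts there were 104 such genes, of which 28 lay above 0, with a median of -0.06. The share above 0 among other genes with a mean of at least 1000 was 35.8% from 300 to 450 bases, 47.3% up to 600, 53.4% up to 1000, 64.3% up to 2000 and 64.9% beyond. The ribosomal protein genes of 300 to 450 bases had 20 of 26 above 0 and a median of 0.03, beside a median of -0.03 for the 212 other abundant genes of that length. From 450 to 600 bases the median was 0.00 for 19 members and -0.01 for 294 other abundant genes. The part of transcript length, RNA quality and library preparation in these values was not tested. Rn45s, the precursor of ribosomal RNA, which is not a polyadenylated messenger RNA, was at -0.20 by the authors' deposited table (SE 0.06, unadjusted p = 0.00127, adjusted p = 0.187).

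**Figure D4:**
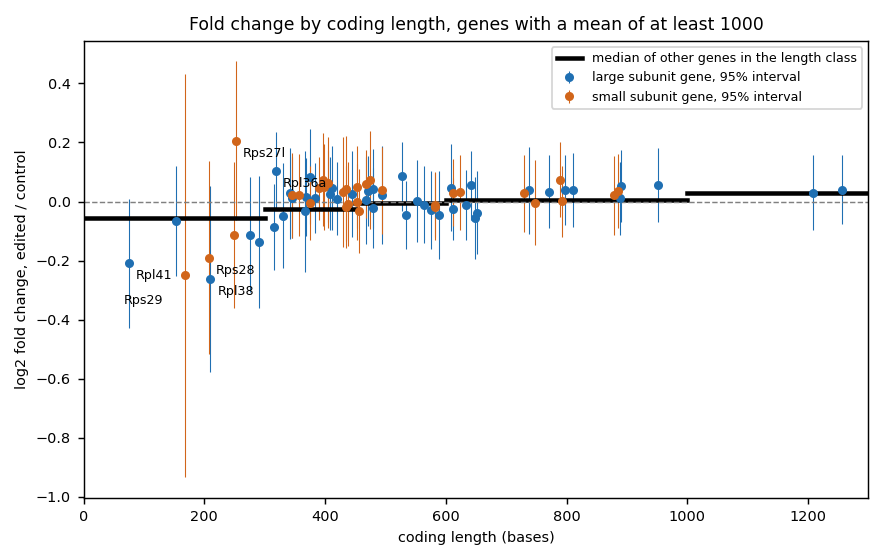
Log2 fold change of edited over control brains with 95% intervals against coding length in bases, for ribosomal protein genes with means of 1000 or more normalized counts (large subunit blue, small subunit orange). Black lines are the medians of other genes of the same abundance in each length class, from -0.06 at up to 300 bases to 0.03 at 1000 to 2000 bases. Of the 9 members of at most 300 bases 8 lie below 0, and longer members lie around 0.

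Other genes of the ribosome and of its assembly were compared by counts and medians of lists. Over all tested genes 5.86% had an unadjusted p below 0.05. Among 19 further translation genes, most with a TOP motif, 15 lay above 0, with a median log2 fold change of 0.05, 0 called and 2 at an unadjusted p below 0.05. By the authors' deposited table these were Eef2, the factor that moves the ribosome along the message, at 0.14 (SE 0.05, adjusted p = 0.447) and the histone chaperone Nap1l1 at 0.16 (SE 0.07, adjusted p = 0.691). The poly(A)-binding protein gene Pabpc1 stood there at 0.13 (SE 0.07) and the initiation factor gene Eif4b at 0.10 (SE 0.06). Of 34 genes of ribosome biogenesis, 26 lay above 0 with a median of 0.05, and 0 had an unadjusted p below 0.05. In the authors' deposited table the assembly ATPase Nvl stood at 0.14 (SE 0.08), the large-subunit assembly factor Pes1 at 0.13 (SE 0.08), and the pseudouridine synthase Dkc1 and its small partner Nop10 at 0.16 (SE 0.11) and -0.16 (SE 0.11). Of 12 measured genes of RNA polymerase I, which transcribes ribosomal RNA, 9 lay above 0 with a median of 0.04 and 0 at an unadjusted p below 0.05. Its initiation factor Rrn3 stood at 0.11 (SE 0.07) in that deposited table. Of 9 chaperones that deliver single ribosomal proteins, 4 lay above 0, with a median of -0.03, and 1 of them, Nap1l1 again, had an unadjusted p below 0.05.

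Genes that act in the control of ribosomal protein messages by mTOR were also compared by their transcript levels. Translation itself was not measured here. Of 16 genes of mTOR and TOP control, 11 lay above 0 with a median log2 fold change of 0.03, and 1 had an unadjusted p below 0.05. By the authors' deposited table this was Pdcd4, an inhibitor of translation initiation, at 0.24 (SE 0.08, unadjusted p = 0.00413, adjusted p = 0.345). Eif4ebp2, the main brain inhibitor of the cap-binding protein, stood at 0.10 (SE 0.07) there. Of 14 tested p53 target genes, 7 lay above 0 with a median of -0.01, and 1 had an unadjusted p below 0.05. By the authors' deposited table that was Pmaip1, a gene of apoptosis, at -0.86 (SE 0.42, unadjusted p = 0.0399), and Mdm2 was at 0.15 (SE 0.08). The 78 genes of mitochondrial ribosomal proteins, which make the separate ribosome of mitochondria, had a median of -0.02 with 33 above 0 and 0 at an unadjusted p below 0.05. The 37 proteasome genes had a median of -0.00 with 17 above 0 and 1 at an unadjusted p below 0.05. None of the genes in these lists was called, against 0.246% of all tested genes. The share of all tested genes at an unadjusted p below 0.05 was 5.86%.

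**Figure D5:**
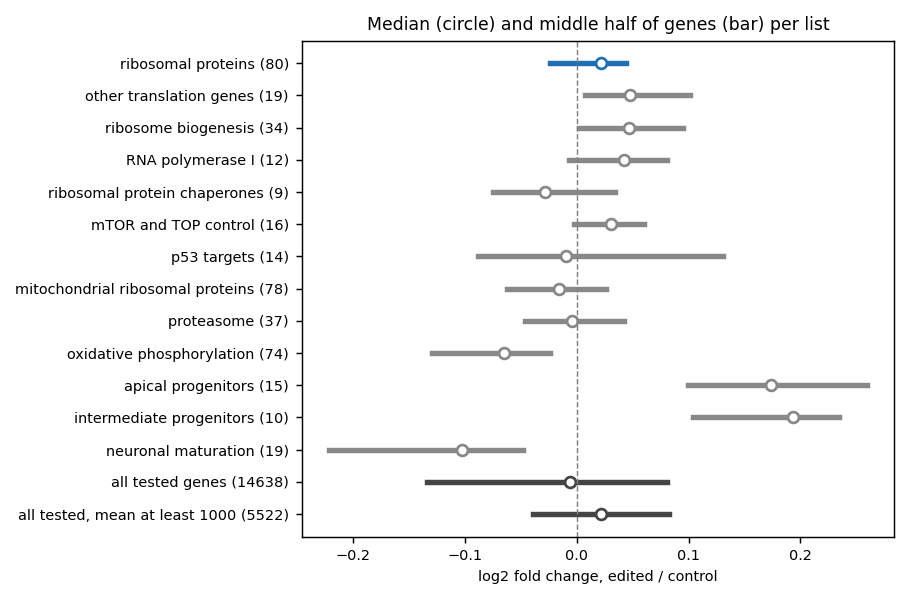
Median log2 fold change of edited over control brains (circle) with the interquartile range (bar) for the 80 ribosomal protein genes (blue), other gene lists (grey) and all tested genes (black), with the number of genes in parentheses. Ribosomal protein genes have a median of 0.02, the same as tested genes with a mean of at least 1000, while progenitor lists lie near 0.17 to 0.19 and neuronal maturation at -0.10.

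Markers of the cell types in the tissue are given beside these values. Of 15 apical progenitor genes 13 lay above 0 with a median log2 fold change of 0.17, and all 10 genes of intermediate progenitors lay above 0 with a median of 0.19. Of 19 genes of neuronal maturation 16 lay below 0 with a median of -0.10. In these lists 3, 4 and 4 genes had an unadjusted p below 0.05, against 5.86% of all tested genes. As for calls, there were 0, against 0.246%. Of markers of other cells, 0 of 13 microglial genes lay above 0 (median -0.64, median SE 0.38, summed mean 3599 normalized counts). Above 0 lay 1 of 12 endothelial genes (median -0.29, median SE 0.21, summed mean 6431). For genes of meninges and fibroblasts it was 3 of 12 (median -0.78, median SE 1.17, summed mean 8874). Of 5 tested erythroid genes 1 lay above 0 (median -0.23, median SE 0.31). The summed mean of the 10 erythroid genes present, tested or not, was 972. All 7 tested choroid plexus genes lay above 0 (median 2.64, median SE 1.09). The summed mean of the 9 choroid plexus genes present, tested or not, was 3085, and Ttr alone had a mean of 2576. At an unadjusted p below 0.05 there were 5 microglial, 2 endothelial, 1 meningeal, 4 choroid plexus and 0 erythroid genes, and 0 were called. The shares over all tested genes are again 5.86% and 0.246%. The part of these cell types in the values of ribosomal protein genes was not tested.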

How the data were processed

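Polyadenylated RNA of 7 cortices was sequenced after extraction with an RNeasy kit, per the labels' protocols. The submitters' processing notes name mm10, cutadapt, featureCounts and DESeq2 without versions. Not given in the sources used here are the aligner, gene annotation, strand setting and treatment of multiply mapped reads. Reads of overlapping or antisense genes may therefore be mixed. All expression values come from 1 table of the authors' comparison, with no value per library. Its mean normalized count is a signal deposited by the authors, the mean over libraries after division by size factors. Per the file headers, the log2 fold change and its SE come from the authors. The Wald score in the authors' deposited table has the sign of the other fold change column, opposite to the one used, and equals that value over the SE to within 1.23e-07. The direction of every fold change is therefore inferred, not stated by the table. Each p-value is the authors' deposited DESeq2 Wald test, with Benjamini-Hochberg adjustment over 14638 genes, and recomputed adjusted values differed by at most 4.01e-05. The brains are separate embryos, so the p-values cover the spread between embryos. The name of the deposited table says that litters were part of the comparison, and its model is not given otherwise. A refit was foreseen only for counts per library, so no gene was refitted.

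From these values, 95% intervals, counts and medians were computed with Python 3.11.15, pandas 2.3.3 and numpy 2.4.6, and the functions were tested on simulated data. No test was run over members, which are not replicates. Gene positions, coding lengths (without the stop codon, 1 transcript a gene) and shared 50-base stretches came from GENCODE M21 (GRCm38), and start windows from RefSeq (GRCm38.p6). The named genes were, in each subunit, the 5 canonical members with the highest and the 5 with the lowest fold change, every like-gene, genes named for a role, those on chromosome X, the 3 highest and 3 lowest means, and up to 4 genes of each other list with the smallest p. Some of the genes this rule takes are not reported here. Rpl7a, Rpl22 and Rpl7 were added after their values were seen or as partners of a pair. Rpl35, Rpl15 and Rps10 were added as examples of a start window. The members, the other lists (translation, ribosome biogenesis, RNA polymerase I, chaperones, mTOR and TOP control, p53 targets, mitochondrial ribosome, oxidative phosphorylation, proteasome and cell type markers) and the rule were chosen with earlier results of these data known. Alternatives changed the minimum mean, the names, chromosome X, the centre of the fold changes, the average and the p threshold, and those on coding length and shared sequence were added after seeing the data.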

Additional observations from a re-analysis of the deposited data

How the results depend on the processing

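Of 69 alternative values, 68 kept the direction or stayed within the limits set for a change. The exception was the number above 0 among members that share under 50% of their coding stretches, 9 of 12, where fewer genes were counted. In the 10 alternative values that count calls, 0 ribosomal protein genes were called. As only 0.246% of all tested genes were called at an adjusted p below 0.05, these counts of 0 show little. At an unadjusted p below 0.05 the share of all tested genes was 5.86%. Centred on the median of genes with a mean of at least 1000 (a shift of 0.02), the medians were 0.00 over all members, -0.01 for the large subunit, 0.00 for the small subunit and 0.02 for like-genes, with 40 of 80 above 0. Across the alternatives the median of all members ran from 0.00 to 0.03. That of the like-genes, 0.04, was 0.00 with a mean of at least 100, with wider names or without short coding lengths, and 0.12 with no filter on the mean or with under 50% shared stretches. Fits without single libraries were not run, since the table holds no values per library. No paired analysis was possible because the deposited table gives no values per brain, so the authors' own fit, named as one with litters, was not compared with one without. The widest intervals were those of Rpl32l, Rps27 and Rpl34, with means of at most 27.7 normalized counts and SEs of 0.78, 0.60 and 0.53.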

Other observations

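Genes of oxidative phosphorylation, the mitochondrial machinery that makes ATP, are another group of abundant genes with short coding sequences, with a median coding length of 400.5 bases. Of 74 tested genes 62 lay below 0 and the median log2 fold change was -0.07. By DESeq2 0 were called, against 0.246% of all tested genes. At an unadjusted p below 0.05 there were 5 of the 74, against 5.86% of all tested genes. In the authors' deposited table, the ATP synthase subunit genes Atp5e, Atp5l and Atp5k stood at -0.26 (SE 0.09), -0.19 (SE 0.09) and -0.43 (SE 0.20), and Ndufa8, a subunit of complex I, at -0.15 (SE 0.07). The part of coding length in these values was not tested.

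Copies of ribosomal protein genes that the name rule does not take had means of 100 or more normalized counts in 5 of the 13 rows examined. In the authors' deposited table Rpl37rt, a retrogene of Rpl37, had a mean of 362 and a log2 fold change of -0.32 (SE 0.22), beside -0.14 (SE 0.11) for Rpl37. Rpl36al had a mean of 1818 and stood at -0.11 (SE 0.09) there, beside 0.10 (SE 0.07) for its paralog Rpl36a. Rps6-ps4, a pseudogene of Rps6, had a mean of 834 and stood at -0.07 (SE 0.19) in that deposited table. The 2 others were Rpl14-ps1 at 0.02 (SE 0.09) and Rps15a-ps6 at 0.17 (SE 0.22).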
